A study of Mus musculus with 7 samples.

Results

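The 60 genes described here encode the machinery of mitosis and chromosome segregation, from the kinase CDK1 and its cyclins to the proteins that pull sister chromatids apart and divide the cell. They are a list of named genes, chosen for what their products do. All 60 were found among the 48795 mouse genes of the deposited table of transcript abundance. The libraries are 7 bulk RNA sequencing libraries of B-lineage cells sorted from spleens of female wild type C57BL/6 mice, 8 to 12 weeks old, collected on day 10 after an intravenous injection of sheep red blood cells, a T cell-dependent antigen. Memory B cells (MBCs, 3 libraries) were sorted as B220+, CD138-, IgD-, CD38+ and CD273+, and plasma cells (PCs, 4 libraries) as B220lo, CD138+ and IgD-. Spleen cells had first been passed over magnetic CD43 beads to enrich B cells, RNA was prepared with a Nugen cDNA kit, and the mice of both groups were immunised. The labels do not say whether the libraries of a group came from separate mice, so p-values measure only the spread between these samples, which may be technical.

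During mitosis, CDK1 bound to cyclin A or cyclin B starts chromosome condensation and spindle assembly. The Aurora and Polo-like kinases direct the spindle, and a checkpoint at the kinetochores holds back the anaphase-promoting complex until every chromosome is attached. That complex, with its activator CDC20 and the ubiquitin-conjugating enzyme UBE2C, then marks cyclin B and securin for destruction. Separase then frees the sister chromatids, and the midzone proteins help cut the cell into daughters. Transcripts of these genes accumulate in G2 and M phase and are low in resting cells. Many of their promoters hold a CHR element and CCAAT boxes, read by the DREAM and B-MYB-FOXM1 complexes and by NF-Y. Resting MBCs are known to divide little until they meet antigen again, whereas newly formed PCs in the spleen still include dividing plasmablasts. The comparison of PCs with MBCs therefore asks how far the transcripts of cell division differ between these sorted populations. Their sort gates do not show whether the cells arose through the germinal center (GC) reaction.

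Promoter sequence is given first, because the members share a sequence feature that the list did not use. RefSeq promoter windows on GRCm38.p6 (250 bases before to 50 bases after the transcript start) were found for 51 of the 60 members, as 54 windows. Windows were searched on both strands for the CHR core TTTGAA and for CCAAT, and overlap between motifs was allowed. Stretches of 150 bases are shown for 6 members, read 5′ to 3′ along the gene, with matches to either motif or its reverse complement in capitals and all other bases in lower case. Ube2c (chr2:164769809-164769958, + strand), Cks1b (chr3:89418262-89418411, - strand) and Cdc20 (chr4:118437314-118437463, - strand) are shown because they had the largest fold changes of the list. Ccnb2 (chr9:70421525-70421674, - strand) is shown as a cyclin B promoter with a CHR element and 3 CCAAT boxes, and Prc1 (chr7:80294331-80294480, + strand) and Pttg1 (chr11:43425952-43426101, - strand) as the 2 members lower in every PC library than in MBC 1 and MBC 2.
Ube2c: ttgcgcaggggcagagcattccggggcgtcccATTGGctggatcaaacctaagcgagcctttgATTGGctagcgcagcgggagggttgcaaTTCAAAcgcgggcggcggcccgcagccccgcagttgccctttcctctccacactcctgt
Cks1b: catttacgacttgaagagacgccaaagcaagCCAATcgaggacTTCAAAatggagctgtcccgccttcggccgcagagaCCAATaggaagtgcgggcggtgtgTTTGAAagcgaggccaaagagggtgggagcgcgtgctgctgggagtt
Cdc20: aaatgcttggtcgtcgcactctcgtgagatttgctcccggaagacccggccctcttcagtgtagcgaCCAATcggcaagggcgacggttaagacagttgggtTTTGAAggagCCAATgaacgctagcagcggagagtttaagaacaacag
Ccnb2: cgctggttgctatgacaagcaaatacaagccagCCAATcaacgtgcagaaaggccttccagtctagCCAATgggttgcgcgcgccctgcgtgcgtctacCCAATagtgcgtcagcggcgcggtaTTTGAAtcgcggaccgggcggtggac
Prc1: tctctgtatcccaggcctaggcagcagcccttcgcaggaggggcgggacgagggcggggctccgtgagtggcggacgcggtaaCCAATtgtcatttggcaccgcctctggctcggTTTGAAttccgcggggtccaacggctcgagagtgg
Pttg1: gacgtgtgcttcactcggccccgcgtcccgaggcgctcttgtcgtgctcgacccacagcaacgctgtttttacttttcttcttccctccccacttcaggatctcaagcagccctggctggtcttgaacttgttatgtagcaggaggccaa

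The CHR core was present in the window of 36 of 51 members (70.6%), against 17.9% of all 32851 RefSeq promoter windows and 12.6% of the 10031 windows of genes tested. Within 100 bases before to 50 bases after the start it was present in 33 of 51 members (64.7%), against 8.01% of all windows and 4.98% of those of genes tested. CCAAT was present in 36 of 51 members, against 37.4% and 38.6%. The windows of 30 members held both motifs (58.8%, against 6.95% and 5.24%). Matches to the CHR core were most frequent around the start itself, where the first base fell in the 25 bases from the start onward in 25.9% of member windows and in 1.31% of all windows. In the stretches shown, the CHR match of Ube2c begins 29 bases before the start, those of Cks1b 77 and 17 before, that of Cdc20 18 before, that of Prc1 5 before and that of Ccnb2 4 after. The stretch of Pttg1 holds neither motif. A match is a run of letters and not a binding site. Of members called higher in PCs without the library labelled MBC 3 (below), 20 of 27 with a window held the CHR core, and of the remaining members 16 of 24 did.

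**Figure D1:**
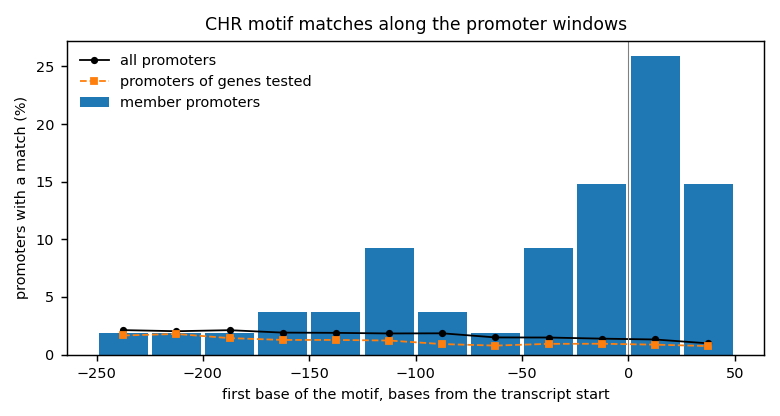
Share of promoter windows (y axis, percent) in which a match to the CHR core begins, in bins of 25 bases by distance from the transcript start (x axis, bases), for member windows (bars, 54 windows), all RefSeq windows (black line) and windows of genes tested (orange line). Member windows reach 25.9% in the bin just after the start, where all windows stand at 1.31%.

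Abundances were deposited as TPM, a transcript's reads per length brought to the same total in each library. They are given here as scaled TPM, with every library put on a common footing through the median of its ratios to the gene-wise geometric means of the 9305 genes above 0 throughout. This was done because immunoglobulin genes took 49.4% to 55.9% of the deposited TPM in PCs and 1.65% to 3.16% in MBCs. Like TPM, scaled TPM is per transcript length, so levels can be set side by side between genes. TPM keeps no read totals, so the number of reads behind a value is not known here. MBC 1 and MBC 2 listed 12 and 37 genes at exactly 0 that reached 10 TPM in every other library, against 0 to 3 such genes in the other libraries. A member at 0 in them is therefore described as listed at 0 and not as absent. Exons of 17 of the 60 members overlap exons of another gene in the GENCODE M21 annotation, 14 of them on the opposite strand. Whether reads were counted by strand is not given in the sources used here. Ube2c (with Tnnc2), Cdc20 (with Elovl1), Prc1 (with Rccd1) and Ccna2 (with Exosc9) are among the latter, and their values carry that uncertainty.

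The library labelled MBC 3 stood apart from the other MBC libraries in genes outside the list. The summed level of 6 memory B cell markers (Ccr6, Cd38, Pdcd1lg2, Nt5e, Cd80 and Hhex) was 362 and 452 scaled TPM in MBC 1 and MBC 2, 25.3 in the library labelled MBC 3 and 15.3 to 30.3 in PCs, and 5 of the 6 were lower in that library than in MBC 1 and MBC 2. Pdcd1lg2 and Cd38 encode CD273 and CD38, on which the MBCs were sorted, and their levels in the library labelled MBC 3 were 2.59 and 6.77 scaled TPM, against 24.4 to 43.3 and 130.3 to 185.7 in the other MBC libraries. The sum of 8 GC B cell markers was 246 and 270.2 in MBC 1 and MBC 2, 717 in the library labelled MBC 3 and 98.6 to 173 in PCs, and all 8 were highest in that library. Of these Bcl6, the GC master regulator, stood at 104.7 in the library labelled MBC 3. Plasma cell markers summed to 130.2 to 186 in the 3 MBC libraries and to 8759 to 14593 in PCs, with Sdc1 (CD138) at 0.0585 and Tnfrsf17 listed at 0 in the library labelled MBC 3. B cell markers summed to 1822 to 4833 in MBCs and 1075 to 1191 in PCs. T cell and myeloid marker lists stayed at or under 40.2 and 29.0 in every library, although Cd3e and Trac of the T cell list were called higher in PCs. The globin genes of the erythroid list were high in MBC 2 alone (sum of the list 4530, against 8.59 to 128.7 elsewhere). Alas2, the first enzyme of heme synthesis in red cells, was 28.9 in MBC 2 and 0 to 2.57 elsewhere, and Klf1 was listed at 0 in MBC 2, MBC 1 and all PC libraries. Mitochondrial genes took 19.7% to 33.5% of the deposited TPM in MBCs and 8.1% to 9.8% in PCs. Counts of calls over the whole list are given below with and without the library labelled MBC 3. Calls, fold changes and tests in the role groups are from the fit without it unless another fit is named. With all 7 libraries, 0 members were called in every role group. The part that these markers and shares have in the results was not tested.

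Mitosis transcripts were low in MBC 1 and MBC 2, intermediate in all 4 PC libraries and highest in the library labelled MBC 3. Over the 60 members the median level was 3.96 and 4.70 scaled TPM in MBC 1 and MBC 2, 38.5 in the library labelled MBC 3, and 14.1, 19, 18.3 and 20.7 in PC 1 to PC 4. Their summed level was 599, 674 and 2881 scaled TPM in MBC 1 to MBC 3 and 1513, 1704, 1804 and 2008 in PC 1 to PC 4. Detection over all genes ran in the same order of groups. Genes above 0 numbered 12983 and 11527 in MBC 1 and MBC 2, 18061 in the library labelled MBC 3 and 14463 to 16768 in PCs. Members under 1 scaled TPM numbered 16 in MBC 1, 22 in MBC 2 and 0 in each other library. The part of detection in these levels was not tested. In bulk RNA a smaller share of dividing cells and less transcript per dividing cell cannot be told apart. Of the whole deposited TPM the members took 0.109% and 0.1% in MBC 1 and MBC 2, 0.591% in the library labelled MBC 3 and 0.0962%, 0.115%, 0.147% and 0.144% in PC 1 to PC 4, so that PC 1 lay under every MBC library on this measure. A further share left immunoglobulin and mitochondrial genes out of the deposited TPM, a denominator chosen after the data were seen. On it the members took 0.171% and 0.157% in MBC 1 and MBC 2, 0.752% in the library labelled MBC 3 and 0.272% to 0.376% in PCs. As in the scaled levels, MBC 1 and MBC 2 were lowest and the library labelled MBC 3 highest. The finer order differed from the summed levels, with MBC 1 above MBC 2 and PC 3 (0.376%) above PC 4 (0.339%).

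**Figure D2:**
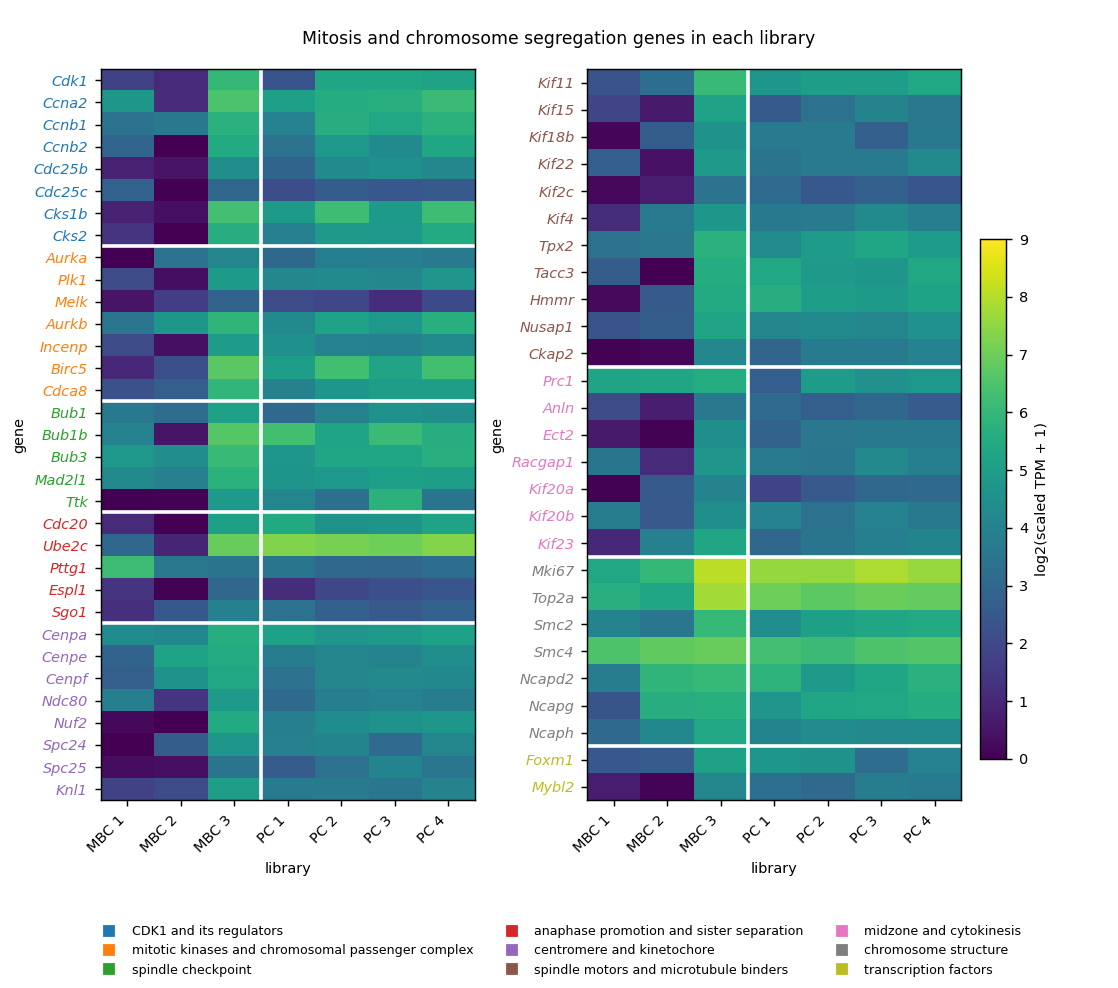
Level of each of the 60 members (rows, grouped and coloured by role) in each of the 7 libraries (columns), as log2(scaled TPM + 1) on the colour scale. The columns MBC 1 and MBC 2 are dark for most members, and the column MBC 3 is brighter than all 4 PC columns for 52 of 60 members.

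With all 7 libraries no member passed the test for a difference between PCs and MBCs. Genes were tested with limma on log2(scaled TPM + 1). A call needed an adjusted p (Benjamini-Hochberg, over all 11573 genes tested) under 0.05 and a log2 fold change of 1 or more in either direction. All 60 members passed the filter on low values. Of these, 0 were called higher and 0 lower in PCs, where 6.41% of all genes tested were called higher and 2.14% lower. At the unadjusted level 7 members (11.7%) had p under 0.05, against 24.2% of all genes tested. The log2 fold change was above 0 for 54 members and below 0 for 6, with a median of 0.84, against 0.14 over all genes tested. That direction depends on the scaling, since on TPM as deposited the median was -0.34 for the members and -0.91 for all genes tested. Only 1 member, Ube2c, lay higher in every PC library than in every MBC library (13.0% of all genes tested), and 1, Prc1, lay lower in every PC library (8.68%).

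Without the library labelled MBC 3, 30 of the 60 members were called higher in PCs, against 15.1% of the 10748 genes tested, and 0 were called lower, against 8.2%. The median log2 fold change of the members was 1.78, against 0.21 over all genes tested, with 57 members above 0 and 3 below. Of the 60 members, 40 (66.7%) lay higher in every PC library than in MBC 1 and MBC 2, where 26.4% of genes tested did, and 2, Pttg1 and Prc1, lay lower in every PC library, where 18.1% did. Among the 30 called, at least 16 were called higher in every alternative fit without that library that kept both MBC 1 and MBC 2. They were Birc5, Cdc20, Cdc25b, Ckap2, Cks1b, Cks2, Ect2, Hmmr, Incenp, Mybl2, Nuf2, Plk1, Spc25, Tacc3, Ttk and Ube2c. These 16 were picked with fits that kept only 1 MBC library counted too, and such fits hold no spread within that group. On TPM as deposited 17 of the 30 were called higher and 3 members were called lower. The library was left out with its difference known, so these counts describe the remaining 6 libraries and carry no independent weight.

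**Figure D3:**
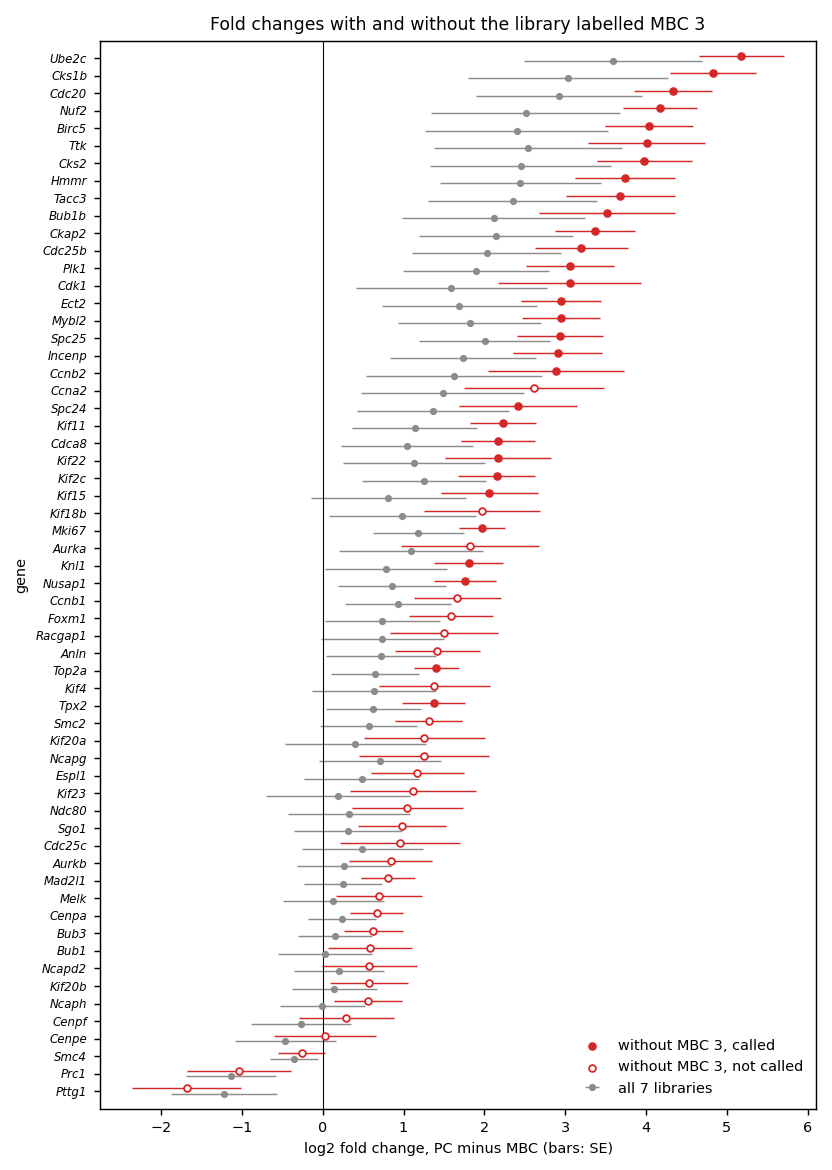
Log2 fold change of each member (x axis, PC minus MBC on log2(scaled TPM + 1), bars are the standard error) with all 7 libraries (grey) and without the library labelled MBC 3 (red, filled where called). Removing that library moves Ube2c from 3.59 to 5.18 and Cks1b from 3.04 to 4.83, while Pttg1, Prc1 and Smc4 stay below 0.

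The title of each library carries a code, the meaning of which the labels do not give, and 3 codes occur in both groups. PC 1 was higher than MBC 1, with which it shares a code, in 52 of 60 members (53.0% of genes tested), and PC 3 was higher than MBC 2 in 51 members (54.9%). PC 4 was higher than the library labelled MBC 3, with which it also shares a code, in 4 members (50.6%). The median difference over the members was 1.84 on the log2 scale for PC 1 minus MBC 1, 1.87 for PC 3 minus MBC 2 and -0.65 for PC 4 minus MBC 3, where all genes tested had medians of 0.12, 0.24 and 0.01. The codes begin with 1 of 2 prefixes, and PC 4 and the library labelled MBC 3 carry the rarer one. Within the more frequent prefix (MBC 1 and MBC 2 against PC 1 to PC 3) 20 members (33.3%) were called higher, against 9.89% of genes tested. That fit is the same as leaving out both the library labelled MBC 3 and PC 4, so it cannot separate the prefix from that library. With the prefix as a covariate and all 7 libraries 3 were called higher, Ube2c, Cks1b and Cdc20, a share no larger than the 6.88% of genes tested. The rarer prefix holds 1 library of each group and allows no test.

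Among CDK1 and its regulators, 5 of 8 members were called higher in PCs without the library labelled MBC 3, against 15.1% of genes tested. Cdk1, the kinase that drives entry into mitosis, was 2.46, 1.11 and 62.4 scaled TPM in MBC 1 to MBC 3 and 4.0, 39.6, 39.5 and 35.0 in PC 1 to PC 4. The library labelled MBC 3 was thus the highest and PC 1 lay close to MBC 1. The log2 fold change was 1.59 (SE 1.2; limma, adjusted p = 0.451) with all libraries and 3.06 (SE 0.89; adjusted p = 0.0424) without the library labelled MBC 3. Ccna2, which encodes cyclin A2, was 26.2, 1.23 and 87.1 in the MBC libraries and 33.0, 46.4, 49.1 and 70.0 in the PC libraries. MBC 1 and MBC 2 were far apart for this gene, and it did not pass the test in either fit (without the library labelled MBC 3, limma, 2.61, SE 0.87, adjusted p = 0.0641). Cks1b and Cks2 encode the small subunits that bind CDKs and help them recognise phosphorylated substrates. Cks1b was 0.823, 0.303 and 78.1 in the MBC libraries and 29.1, 72.1, 29.1 and 72.6 in PCs (4.83, SE 0.54; limma without the library labelled MBC 3, adjusted p = 0.00105). Cks2 was 1.64, listed at 0, and 47.4 in the MBC libraries and 14.3, 28.6, 27.1 and 44.5 in PCs (3.98, SE 0.59; adjusted p = 0.00371). For both, the PC libraries lay well above MBC 1 and MBC 2 and below the library labelled MBC 3. Cdc25b, a phosphatase that activates CDK1, was under 1 scaled TPM in MBC 1 and MBC 2, 21.0 in the library labelled MBC 3 and 6.48 to 22.0 in PCs. The related Cdc25c was 6.14, listed at 0, and 7.02 in MBCs and 3.43 to 5.28 in PCs. Ccnb1 and Ccnb2, the B-type cyclins, were 39.5 ± 17.3 and 23.1 ± 12.1 in PCs (SD, n = 4). In MBCs Ccnb1 was 9.81, 11.1 and 53.3, and Ccnb2 was 6.60, listed at 0, and 44.4. Without the library labelled MBC 3, Ccnb2 was called (2.89, SE 0.84; limma, adjusted p = 0.043) and Ccnb1 was not (1.67, SE 0.54; adjusted p = 0.0594).

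Of the mitotic kinases and the chromosomal passenger complex, 4 of 7 were called higher without the library labelled MBC 3, against 15.1% of genes tested. Of the 4, 3 belong to the passenger complex, which corrects wrong attachments to the spindle. Aurka, the Aurora kinase of the spindle poles, was listed at 0 in MBC 1 and was 9.64 in MBC 2, 16.3 in the library labelled MBC 3 and 7.11, 13.7, 13.3 and 11.7 in PCs. MBC 2 fell inside the range of the PC libraries, and Aurka was not called (1.82, SE 0.85; limma without the library labelled MBC 3, adjusted p = 0.162). Plk1, the Polo-like kinase that triggers mitotic entry and spindle assembly, was 3.18, 0.263 and 29.3 in MBCs and 16.8, 19, 17.0 and 24.9 in PCs, where the 4 libraries lay close together (3.06, SE 0.55; adjusted p = 0.00779). Birc5, which encodes survivin, the passenger subunit that docks the complex at centromeres, was 1.05, 3.57 and 102 in MBCs and 30.9, 77.3, 36.8 and 77.1 in PCs. The PC libraries fell into a lower and a higher pair, both above MBC 1 and MBC 2 (4.04, SE 0.54; limma, adjusted p = 0.00254). Incenp and Cdca8, the scaffold and a further subunit of the same complex, had log2 fold changes of 2.91 and 2.17. Aurkb, its catalytic kinase, was 10.5, 25.9 and 58.5 in MBCs and 18.4 to 49.5 in PCs, with the library labelled MBC 3 above every PC library. It was not called (0.84, SE 0.51; limma without the library labelled MBC 3, adjusted p = 0.277). Melk, another kinase, stayed at or under 6.22 in all libraries.

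The spindle checkpoint genes split into 2 called higher without the library labelled MBC 3 and 3 not called. Of all genes tested, 15.1% were called higher in that fit. Bub1, a checkpoint kinase, was 11.5, 8.4 and 34.3 in MBCs and 7.38, 15, 23.3 and 21.0 in PCs, so that PC 1 lay under all MBC libraries. Bub1b, which encodes BUBR1 of the inhibitory mitotic checkpoint complex, was 14.9, 0.431 and 97.8 in MBCs and 76.9, 37.4, 69.9 and 48.3 in PCs. PC libraries lay above MBC 1 and MBC 2 here (3.52, SE 0.84; limma without the library labelled MBC 3, adjusted p = 0.0223), while MBC 1 lay far above MBC 2. Ttk, which encodes the MPS1 kinase that starts checkpoint signalling, was listed at 0 in MBC 1 and was 0.0404 in MBC 2, 27.9 in the library labelled MBC 3 and 16.4, 9.01, 53.6 and 10.3 in PCs. PC 3 stood far above the other PC libraries for this gene, and the difference was called (4.01, SE 0.73; adjusted p = 0.00831). Bub3 and Mad2l1, 2 checkpoint proteins, were already at 20.2 to 27.1 and 14.1 to 17.7 in MBC 1 and MBC 2, against 37.8 ± 9.61 and 28.7 ± 3.88 in PCs (SD, n = 4). In the library labelled MBC 3 they stood at 65.6 and 53.0, above every PC library.

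Of the 5 genes of anaphase, 2 were called higher without the library labelled MBC 3, Ube2c and Cdc20, against 15.1% of genes tested. Pttg1 ran the other way without passing the test. Ube2c, the ubiquitin-conjugating enzyme of the anaphase-promoting complex, was 6.96, 0.903 and 118 in MBCs and 156, 140.3, 128 and 161 in PCs. It was the only member whose PC libraries all lay above the library labelled MBC 3. Its log2 fold change was 3.59 with all 7 libraries (SE 1.10; limma, adjusted p = 0.0801, the smallest among the members) and 5.18 without that library (SE 0.52; adjusted p = 0.000724). Cdc20, the activator of the complex, was 1.11, listed at 0, and 33.8 in MBCs and 43.1, 23.7, 24.5 and 35.5 in PCs, so that the library labelled MBC 3 fell within the PC range. Its log2 fold change was 2.92 (SE 1.03; limma, adjusted p = 0.119) with all libraries and 4.34 (SE 0.48; adjusted p = 0.00106) without the library labelled MBC 3. Pttg1, which encodes securin, the inhibitor of separase, was 70.3, 11.1 and 10.1 in MBCs and 10.3, 7.24, 6.75 and 8.62 in PCs. Only MBC 1 was high, and Pttg1 was the 1 member for which the library labelled MBC 3 was not the highest MBC library (-1.68, SE 0.67; limma without the library labelled MBC 3, adjusted p = 0.111). Espl1, separase itself, and Sgo1, which protects cohesin at the centromere, were 3.01 ± 1.28 and 6.54 ± 2.13 in PCs (SD, n = 4). In the library labelled MBC 3 they stood at 6.80 and 14.5, and neither was called in either fit.

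In the centromere and kinetochore group 4 of 8 members were called higher without the library labelled MBC 3, against 15.1% of genes tested. Of the 4, 3 are subunits of the NDC80 complex, which ties kinetochores to microtubules. Nuf2 was 0.143, listed at 0, and 43.9 in MBCs and 13.8, 19.6, 23.4 and 26.2 in PCs (4.17, SE 0.46; limma without the library labelled MBC 3, adjusted p = 0.00103). Spc25 and Spc24, its partners, had log2 fold changes of 2.94 (SE 0.54; limma, adjusted p = 0.00837) and 2.42 (SE 0.73; adjusted p = 0.0481). The remaining subunit Ndc80, which grips the microtubule, was 13.3, 1.61 and 27.9 in MBCs, and the PC range of 7.69 to 14.8 took in MBC 1. Knl1, the scaffold on which checkpoint proteins gather, was called as well (1.80, SE 0.42; adjusted p = 0.0208). Cenpa, the histone H3 variant of centromeres, was 19.8, 17.5 and 47.5 in MBCs and 34.9, 25.1, 28.1 and 34.3 in PCs, higher in every PC library than in MBC 1 and MBC 2 by less than the test required (0.67, SE 0.33; adjusted p = 0.177). Cenpe, a kinetochore motor, was 6.37, 36.5 and 45.6 in MBCs and 13.0, 16.1, 15.4 and 20.4 in PCs. Cenpf, a large kinetochore protein, was 5.61, 23.7 and 40.5 in MBCs and 9.25, 16.1, 17.8 and 17.6 in PCs. For both, MBC 1 lay under and MBC 2 over all PC libraries, and the fold change was below 0 with all 7 libraries (-0.46 and -0.27) and above 0 without the library labelled MBC 3 (0.03 and 0.29), far from the threshold in each.

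Spindle motors and microtubule binders had the largest share of calls among the 9 role groups. Without the library labelled MBC 3, 9 of 11 were called higher in PCs, against 15.1% of genes tested. Kif11, the motor that pushes spindle poles apart, was 3.92, 8.61 and 68.1 in MBCs and 25.7, 31.5, 31.3 and 39.8 in PCs (2.23, SE 0.41; limma, adjusted p = 0.00844). Kif15, a motor that can stand in for it, was 2.65, 0.586 and 35.6 in MBCs and 4.80, 9.44, 15.2 and 11.2 in PCs (2.06, SE 0.60; adjusted p = 0.0419). Kif15 had the largest excess of the library labelled MBC 3 over the PC mean, at 3.50 times. Hmmr, a microtubule-binding protein of the spindle poles, was 0.165, 4.83 and 44.2 in MBCs and 47.9, 32.2, 29.1 and 36.1 in PCs (3.74, SE 0.62; limma, adjusted p = 0.0058). Tacc3, which stabilises kinetochore fibres, was 5.24, listed at 0, and 46.5 in MBCs and 40.7, 28.1, 26.1 and 39.6 in PCs (3.68, SE 0.67; adjusted p = 0.00847). For Hmmr only PC 1 lay above the library labelled MBC 3. For Tacc3 all PC libraries lay below it, with PC 1 and PC 4 nearest. Kif18b, a microtubule-shortening motor, was 0.0823, 5.35 and 22.8 in MBCs and 11.8, 11.7, 5.77 and 11.4 in PCs, with PC 3 near MBC 2, and it was not called (1.97, SE 0.72; adjusted p = 0.0865). Kif4, the chromokinesin, was the other member of the group not called, with 1.24, 12.3 and 26.4 in MBCs and 11.4 to 18.1 in PCs. Ckap2, Kif22, Kif2c, Nusap1 and Tpx2 were called with log2 fold changes of 1.37 to 3.37.

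Of the midzone and cytokinesis genes 1 of 7 was called, a share near the 15.1% of all genes tested. The called gene was Ect2, the exchange factor that activates RhoA at the cleavage furrow, at 0.587, 0.0472 and 21.2 in MBCs and 6.24, 11.0, 11.5 and 11.4 in PCs (2.95, SE 0.49; limma without the library labelled MBC 3, adjusted p = 0.00615). PC 1 was the low library of its group for this gene. Prc1, which bundles the antiparallel microtubules of the midzone, was 36.8, 39.0 and 46.5 in MBCs and 5.41, 30.1, 22.3 and 26.7 in PCs, the only member lower in every PC library than in all 3 MBC libraries. Its log2 fold change was -1.14 (SE 0.56; limma, adjusted p = 0.249) with all libraries and -1.03 (SE 0.64; adjusted p = 0.284) without the library labelled MBC 3. Anln, an actin and septin scaffold of the contractile ring, was 3.12, 0.687 and 11.2 in MBCs and 7.83, 5.60, 6.86 and 5.06 in PCs, with every PC library above MBC 1 and MBC 2 and no call (1.42, SE 0.53; adjusted p = 0.091). Racgap1 (10.4 and 1.12 in MBC 1 and MBC 2, 10.5 to 17.8 in PCs), a subunit of centralspindlin, also did not overlap, while its partner Kif23 and the motors Kif20a and Kif20b each had MBC 1 or MBC 2 inside the PC range.

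Chromosome structure genes had the highest summed level of the 9 role groups in every library. Without the library labelled MBC 3, 2 of 7 were called higher, against 15.1% of genes tested. Mki67, which coats mitotic chromosomes and is the usual marker of cycling cells, was 41.2, 62.0 and 269 in MBCs and 190.0, 188, 238 and 195 in PCs. MBC 1 and MBC 2 thus held clear levels of this transcript, and the PC libraries lay above MBC 1 and MBC 2 with little spread (1.97, SE 0.29; limma without the library labelled MBC 3, adjusted p = 0.00364). Top2a, the topoisomerase that untangles sister DNA, was 49.7, 37.8 and 216 in MBCs and 129.7, 104, 122 and 113 in PCs (1.41, SE 0.28; adjusted p = 0.0111). Smc2 and Smc4 are the core of condensin, and Ncapd2, Ncapg and Ncaph are its other subunits. None of the 5 was called. Smc4 was 88.2, 111 and 119.9 in MBCs and 78.0, 68.8, 89.7 and 96.3 in PCs, nearly flat over the libraries (-0.26, SE 0.29; limma, adjusted p = 0.556). Ncaph was 7.71, 17.6 and 40.8 in MBCs and 15.7, 19.1, 17.9 and 18.9 in PCs, with a log2 fold change of 0.56 without the library labelled MBC 3 and -0.0035 with it. Ncapd2 and Ncapg were higher in MBC 2 (58.6 and 48.3) and in the library labelled MBC 3 (63.6 and 49.0) than in every PC library. They were lower in MBC 1 (13.0 and 4.0). Only Smc2 was higher in every PC library than in MBC 1 and MBC 2 (1.31, SE 0.41; limma, adjusted p = 0.0544).

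The transcription factors of the list were higher in all PC libraries than in MBC 1 and MBC 2. Mybl2, which encodes B-MYB, was 0.664, 0.0674 and 16.5 in MBCs and 8.67, 7.70, 12.6 and 12.2 in PCs (2.95, SE 0.48; limma without the library labelled MBC 3, adjusted p = 0.00569). Foxm1, its partner at G2/M promoters, was 4.49, 5.11 and 34.1 in MBCs and 25.4, 23.9, 8.22 and 15 in PCs. With PC 3 closer to the MBC libraries it was not called (1.59, SE 0.52; adjusted p = 0.0632).

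The library labelled MBC 3 was above every PC library for 52 of 60 members (86.7%), against 23.7% of genes tested. It was the highest MBC library for 59 (98.3%), against 35.1%. Its level was 1.84 times the PC mean in the median over the members, from 0.809 times for Ube2c to 3.50 times for Kif15, and at least 2 times for 21 members. The share of all genes tested at 2 times or more was not computed. On log2(scaled TPM + 1) its median difference from the PC mean was 0.88 over the members and 0.01 over all genes tested. Pearson's r over the 60 members, which is descriptive because genes share libraries and are not replicates, was 0.80 to 0.94 between this library and the PC libraries on log2(scaled TPM + 1), 0.51 and 0.45 with MBC 1 and MBC 2, and 0.79 to 0.98 between PC libraries. Over all genes tested the same values were 0.70 to 0.78, 0.69 and 0.68, and 0.85 to 0.96. This library thus lay nearer to PCs than to MBC 1 and MBC 2 over all genes as well, by a smaller margin. MBC 1 and MBC 2 had r of 0.55 with each other over the members and 0.68 over all genes tested. On (scaled TPM + 1) they were more than 4 times apart for 20 members, and the share of all genes tested so far apart was not computed. In MBC 1, 3 members (Aurka, Ttk and Spc24) were listed at 0, and 6 others (Ccnb2, Cdc25c, Cks2, Cdc20, Nuf2 and Tacc3) in MBC 2, with none listed at 0 in both.

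Among the PC libraries, PC 1 was the lowest for 35 of 60 members (58.3%), against 34.0% of genes tested. PC 4 was the highest for 24 (40.0%), against 22.0%. The median difference of PC 1 from the mean of the other PC libraries was -0.38 on the log2 scale over the members and -0.03 over all genes tested. In PC 1, 11 members were lower by more than 1 on this scale and 0 were higher by more than 1. The shares of all genes tested beyond 1 on this scale were not computed. Over all genes tested, PC 1 had r of 0.85 to 0.87 with the other PC libraries, which had 0.91 to 0.96 with each other. The 11 included Cdk1 (4.0 scaled TPM, against 35.0 to 39.6 in the other PC libraries), Prc1 (5.41, against 22.3 to 30.1), Ccnb1 (14.8, against 41.3 to 54.4), Cdc25b (6.48, against 16.9 to 22.0) and Ccnb2 (9.36, against 18.6 to 37.8), so that 5 of the 8 genes of the CDK1 group, with Cks2, were among them. PC 1 was the highest PC library for 15 members, among them Foxm1, Sgo1, Cdc20, Bub1b and Hmmr. No test was made within a group.

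**Figure D4:**
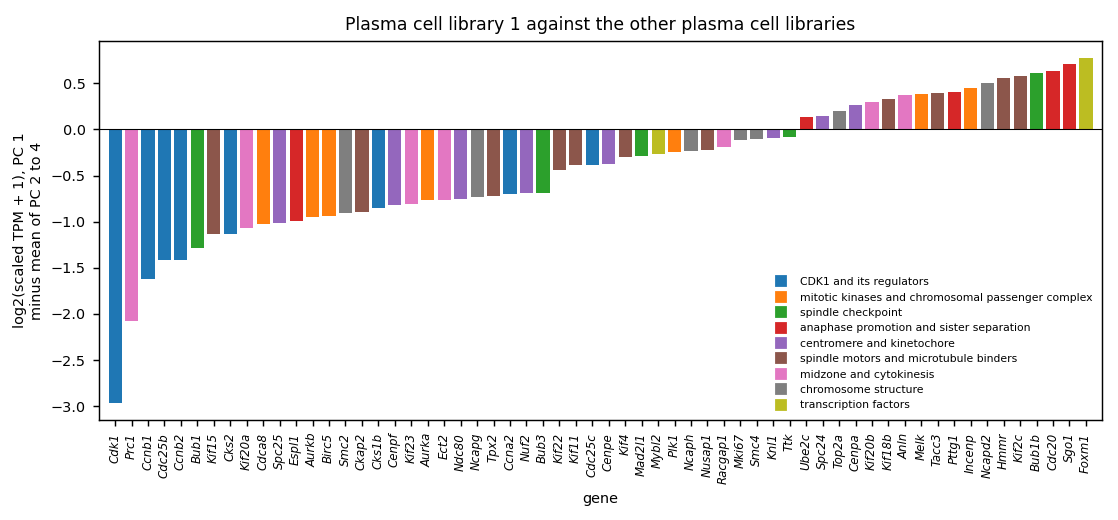
Difference of PC 1 from the mean of PC 2 to PC 4 for each member (y axis, log2(scaled TPM + 1); x axis, genes ordered by the difference), with bars coloured by role. The bars of Cdk1, Prc1, Ccnb1, Cdc25b and Ccnb2 reach furthest below 0, and no bar rises above 1.

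Other genes of cell division were taken from 4 further lists. Of 57 further mitosis genes, 55 were tested with all 7 libraries and 0 called. Without the library labelled MBC 3, 53 were tested and 17 called higher, against 15.1% of all genes tested, and 0 lower. Their median log2 fold change was 1.38. Of 15 S phase genes (DNA replication and nucleotide synthesis), 0 were called with all libraries and 8 higher without the library labelled MBC 3, with a median of 1.80. Their summed level was 141 and 339 scaled TPM in MBC 1 and MBC 2, 969 in the library labelled MBC 3 and 382 to 709 in PCs. The 24 genes of the anaphase-promoting complex and cohesin, which are used outside mitosis as well, had a median of 0.23 without that library, near the 0.21 of all genes tested, with 1 called higher (Cdc27) and 1 lower (Pds5a). Of 18 E2F and DREAM factors, 3 were called higher (E2f8, Tfdp2 and Rbl1), near the 15.1% of all genes tested, and the median was 0.17, against 0.21 over all genes tested. These 5 genes were named after their values were seen. Unadjusted p was under 0.05 with all 7 libraries for 3 of the further mitosis genes, 2 of the S phase genes and 1 each of the other lists, in each list a smaller share than the 24.2% of all genes tested.

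**Figure D5:**
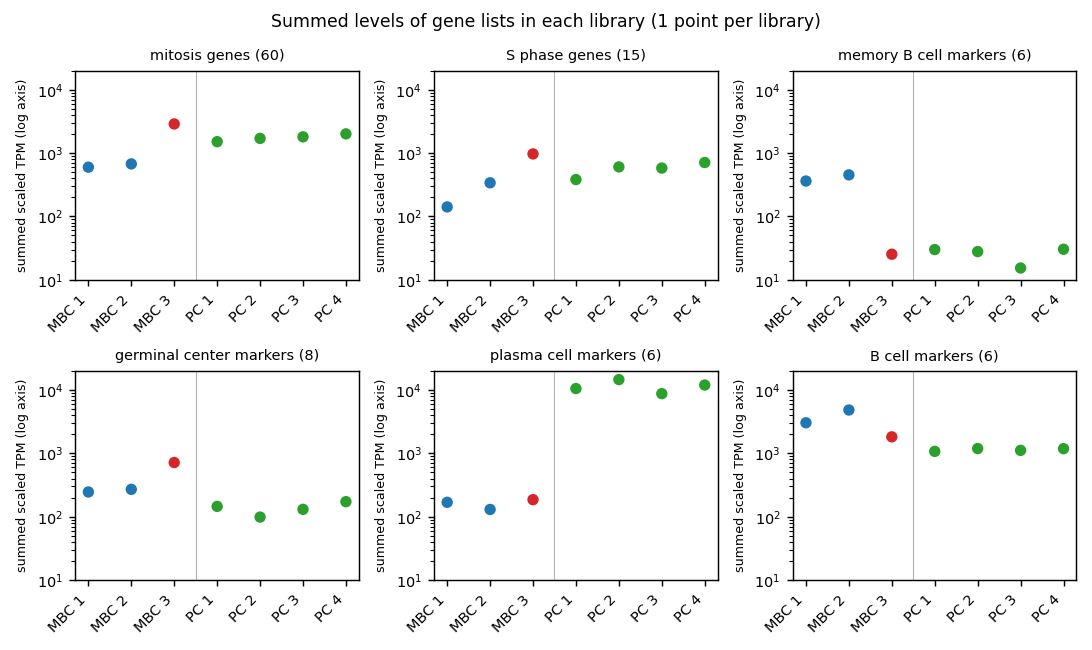
Summed scaled TPM (y axes, log scale) of the mitosis genes, S phase genes and marker lists in each library (x axes), 1 point per library, with MBC 1 and MBC 2 in blue, the library labelled MBC 3 in red and PCs in green. The red point is the highest for mitosis genes (2881), S phase genes (969) and GC markers (717), and lies at the PC level for memory B cell markers (25.3).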

How the data were processed

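The deposited table gives TPM, computed by the authors, for 48795 Ensembl genes in 7 libraries, rounded to 2 decimals. The submitters' processing notes name STAR 2.5.2a, RSEM 1.3.0, DESeq2 1.18.1 and GRCm38, without saying what each was used for. TPM holds no read totals, so no count test was run and depth and counting intervals could not be given. Columns were matched to samples by their names, groups came from the sample descriptions, and 0 columns belonged to other samples. Symbols came from GENCODE M21 by gene ID.

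Genes at 1 TPM or more in at least 3 libraries were tested with limma 3.58.1 in R 4.3.3 (lmFit, eBayes with a mean-variance trend, two-sided) on log2(scaled TPM + 1), a scale that understates changes of low genes. P-values were adjusted over all genes tested. No covariate was used, since the body of the study names no test for these libraries. Without the library labelled MBC 3, scaling and filter were computed again from the other 6 libraries, whereas printed levels keep the scaling over 7. The procedure was tested on simulated data with independent noise for each gene and library. No simulated library stood apart from its group, so that test does not cover the effect of such a library. Python 3.11.15, pandas 2.3.3 and numpy 2.4.6 were used for the rest. The members and lists were chosen with earlier results of these data known. Any member could be named, and values in every library were given for the first 2 of each role group, called members among the 10 largest fold changes, members whose sign was opposite to the median, and members with an outlying PC library.

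Samples with the same replicate number, or the same title code, did not deviate together in all 3 pairs. Correlations of deviations from the group means were 0.11, -0.04 and -0.083 by number and 0.11, -0.0044 and 0.22 by code. MBC 1 and the library labelled MBC 3 each correlated most with the PC library that shares their code, and MBC 2 did not. With so few libraries this check cannot exclude pairing. The main fit assumed none. Alternatives were TPM as deposited, immunoglobulin genes removed, quantile normalization, a pseudocount of 0.1, other filters, no trend, each library left out, blocks by number or code, and the code prefix.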

Additional observations from a re-analysis of the deposited data

Results flagged for a closer look

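For 5 of the 70 results examined, 1 of the 4 PC libraries lay outside the others by Dixon's criterion at the 95% level, which chance gives in about 1 of 20 groups. Cdk1 was 4.0 scaled TPM in PC 1, against 35.0 to 39.6 in the other PC libraries. Ect2 was 6.24 in PC 1, against 11.0 to 11.5. Ttk was 53.6 in PC 3, against 9.01 to 16.4. Kif18b was 5.77 in PC 3, against 11.4 to 11.8. Mki67 was 238 in PC 3, against 188 to 195. The MBC group, with 3 libraries, was not examined in this way.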

How the results depend on the processing

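The count of members called was 0 with all 7 libraries and stayed 0 with immunoglobulin genes removed, quantile normalization, a pseudocount of 0.1, both other filters (56 members tested at 5 TPM) and no trend. It was 3 on TPM as deposited (Pttg1, Prc1 and Smc4, all lower), 3 with the code prefix as a covariate (all higher), 20 within the more frequent prefix, and 0 to 30 when each library was left out, where every fit that kept the library labelled MBC 3 gave 0. With the replicate block, by number, 0 members were called, and with the block by title code 0 as well, while the calls over all genes went from 990 to 450 and 517, and the samples share only a number or code. Called genes numbered 3490 on TPM as deposited, of which 13.5% were higher in PCs, 824 (47.7%) with immunoglobulin genes removed and 1135 (59.5%) with quantile normalization, against 74.9% of 990. Without the library labelled MBC 3 the count of 30 became 20 to 30 under other settings and 20 to 29 with a PC library also left out. Fits that also left out MBC 1 or MBC 2 kept 1 MBC library, and their counts are not given. The median log2 fold change of the members was -0.34 on TPM as deposited and 0.37 to 1.78 when each library was left out. Calls in the further mitosis genes, the anaphase-promoting complex and cohesin, the E2F and DREAM factors and the S phase genes went from 0 each to 17, 2, 3 and 8 without the library labelled MBC 3, and to 6, 9 and 2, all lower, for the first 3 lists on TPM as deposited.

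No member that changed sign was called in the setting that turned it, and the cause was not tested beyond the change of scaling or samples itself. On TPM as deposited, where the median over all genes tested was -0.91, the log2 fold changes that turned were Ccnb1 -0.34, Cdc25c -0.47, Melk -0.75, Aurkb -1.01, Cdca8 -0.18, Bub1 -1.21, Bub3 -1.14, Mad2l1 -1.03, Espl1 -0.37, Sgo1 -0.79, Cenpa -1.04, Ndc80 -0.86, Knl1 -0.38, Kif11 -0.10, Kif15 -0.27, Kif4 -0.52, Tpx2 -0.64, Nusap1 -0.36, Anln -0.34, Racgap1 -0.43, Kif20a -0.49, Kif20b -1.08, Kif23 -0.94, Mki67 -0.13, Top2a -0.66, Smc2 -0.71, Ncapd2 -1.09, Ncapg -0.54, Foxm1 -0.48. With immunoglobulin genes removed they were Melk -0.020, Aurkb -0.013, Bub1 -0.25, Bub3 -0.13, Mad2l1 -0.026, Cenpa -0.042, Kif20b -0.12, Ncapd2 -0.081, and with quantile normalization Melk -0.37, Bub1 -0.086, Kif20b -0.015. Bub1 was -0.12 with the replicate block. Ncaph was 0.013 with the pseudocount of 0.1, 0.068 with the prefix as a covariate and 0.54 within the more frequent prefix, where Cenpf was 0.22. Over the fits that left out each library, the members that turned ranged as follows: Ccna2 -0.031 to 2.61, Cdc25c -0.50 to 0.96, Aurka -0.18 to 1.82, Melk -0.47 to 0.70, Aurkb -0.36 to 0.84, Bub1 -0.39 to 0.59, Bub3 -0.23 to 0.63, Mad2l1 -0.14 to 0.81, Espl1 -0.25 to 1.17, Sgo1 -0.36 to 0.98, Cenpa -0.052 to 0.67, Cenpe -1.31 to 0.029, Cenpf -1.04 to 0.29, Ndc80 -0.69 to 1.05, Kif15 -0.17 to 2.06, Kif18b -0.21 to 1.97, Kif22 -0.015 to 2.17, Kif4 -0.41 to 1.38, Racgap1 -0.30 to 1.5, Kif20a -0.69 to 1.26, Kif20b -0.42 to 0.57, Kif23 -1.04 to 1.12, Ncapd2 -0.54 to 0.58, Ncapg -0.41 to 1.25, Ncaph -0.58 to 0.56.

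With 2 or 3 MBC libraries, 1 of which stood apart in its marker transcripts, and no read totals, the fold changes of low members rest on few values. A member that was not called cannot be taken as unchanged.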
